A study of Danio rerio with 16 samples.

Results

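DNA replication machinery was read here as the 66 genes, of 32520 in the count table, whose symbol matches a fixed name pattern. The pattern takes in the MCM, ORC, GINS, RFC, RPA and E2F families, CDC6, CDT1, geminin (GMNN), CDC45, PCNA, DNA polymerases alpha, delta and epsilon, primase, FEN1, LIG1, cyclin E and enzymes of deoxynucleotide supply. It matched 64 symbols, since MCM6 and RRM2 are each carried by 2 gene IDs. In a proliferating cell the origin recognition complex (ORC), CDC6 and CDT1 load the MCM ring onto DNA in G1 phase, and CDC45 and the GINS complex turn that ring into the active helicase at the start of S phase. Polymerases then copy the strands with the help of the sliding clamp PCNA, its loader RFC and the strand-binding complex RPA, while E2F factors and cyclin E switch many of these genes on. Mature muscle fibres do not divide, and muscle repair draws on dividing satellite cells as well as on dividing immune and connective tissue cells.

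Muscle RNA was sequenced from 16 adult zebrafish, 1 fish per library and 4 fish per group. The groups were injured and non-injured ankrd1a mutants (allele bns502, made by CRISPR/Cas9, ankrd1a-/-), and injured and non-injured wild types of the strain AB (Oregon). Injured fish had been stabbed with a needle in the dorsal muscle of the tail and were left to heal for 5 days before muscle around the wound was collected. The same stretch of muscle came from uninjured controls, with no sham wound named in the labels. The series set out to find genes that respond to loss of ankrd1a, which encodes an ankyrin repeat protein of striated muscle, during repair. The labels do not say where the lesion in ankrd1a lies or from how many founders the line was made. Of the 2 IDs with the symbol ANKRD1, ENSDARG00000075263 ranged from 90.1 to 148 CPM in injured mutants and 1.09 to 1.44 CPM in non-injured mutants, and from 148 to 186 CPM in injured and 1.77 to 5.08 CPM in non-injured wild types. The symbol table does not tell ankrd1a from ankrd1b, so these levels check nothing about the genotype labels. CPM are estimated counts scaled to a common library size.

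Total counts per library ran from 17324501 to 17994093 in injured mutants, 17523729 to 19811579 in non-injured mutants, 22006043 to 24189296 in injured wild types and 18011159 to 25231137 in non-injured wild types. Of 10 mature muscle markers 4 were lower and 1 higher after injury in mutants, and 3 lower and 1 higher in wild types. They summed to 53020 to 62710 CPM in injured against 73350 to 125100 CPM in non-injured mutants, with no overlap, and to 65210 to 103100 CPM in injured against 77040 to 167500 CPM in non-injured wild types. In the same libraries 13 of 15 tested macrophage markers were higher after injury in mutants and 7 of 15 in wild types, and 7 of 10 satellite cell and myoblast markers and 8 of 10 fibroblast markers were higher in each genotype. Summed macrophage markers ranged from 316 to 439.6 CPM in injured against 126 to 176 CPM in non-injured mutants, and from 256 to 454 CPM in injured against 133 to 253 CPM in non-injured wild types. The macrophage counts are of gene IDs, several of which carry the symbol MFAP4, so they are not counts of separate markers. The MFAP4 IDs ENSDARG00000088745 and ENSDARG00000090783 were called in mutants (adjusted p = 0.000378 and 0.00059) and not in wild types (adjusted p = 0.0841 and 0.142). Their difference between responses did not pass the test (adjusted p = 0.419 and 0.455). Another MFAP4 ID was at 0 in every library. Summed satellite cell and myoblast markers ranged from 138 to 168 CPM in injured against 68.6 to 81.0 CPM in non-injured mutants, and from 98.9 to 126 CPM in injured against 63.1 to 91.8 CPM in non-injured wild types. Summed fibroblast markers ranged from 8529 to 10370 CPM in injured against 3195 to 3827 CPM in non-injured mutants, and from 11420 to 14450 CPM in injured against 3164 to 5324 CPM in non-injured wild types. Endothelial markers went the other way, with 4 of 5 lower after injury in each genotype. Of 4 tested lymphocyte markers 0 passed the test in either genotype, and the list summed to at most 9.95 CPM in any library. Of 3 tested neutrophil markers 1 was higher and 1 lower in mutants, and 1 was higher and 0 lower in wild types. Of 4 tested erythrocyte markers 1 was lower and 0 higher in mutants, and 0 passed the test in wild types. The muscle, macrophage, satellite cell, fibroblast and endothelial lists moved with the injury comparisons below, and their part in the results was not tested.

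After injury part of the replication machinery was higher, part did not pass the test and a few genes were lower. In mutants 25 of the 58 tested members were higher in injured than in non-injured fish and 3 were lower, against 14.0% higher and 13.3% lower among all 16514 genes tested. In wild types 24 members were higher and 2 lower, against 11.8% and 11.9% of all genes. In either direction 28 members were called in mutants and 26 in wild types, against 27.2% and 23.8% of all genes. A member was called at an adjusted p below 0.05 over all genes tested. The median log2 fold change of the tested members was 0.63 in mutants and 0.71 in wild types, and over all genes tested it was -0.02 and -0.03. The other 8 members had at most 23 counts in any library and were not tested: MCM8, MCM10, ORC6, POLE2, E2F1, E2F5, mcm3l and the MCM6 ID ENSDARG00000033231. Of the 58, 14 reached the minimum of 0.52 CPM in fewer than 4 of the non-injured libraries and so passed the filter mostly through injured ones, which limits what these counts and medians can be used for. They were CDC6, CDT1, GMNN, CDC45, GINS2, GINS4, TYMS, TK1, CCNE1, CCNE2, e2f2, E2F7, E2F8 and MCM9. Any rise given below for 1 of them carries the same limit. Without that filter all 66 members were tested, and 24 were higher and 3 lower in mutants, and 19 higher and 2 lower in wild types. Over all genes 2065 were then higher and 1878 lower in mutants, against 2306 and 2190 with the filter. In wild types 1684 were higher and 1606 lower, against 1956 and 1971. In bulk tissue, fewer cells of a type and less RNA per cell cannot be told apart, so a level here is a sum over all cells of the sample.

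The same 21 members were higher in both genotypes: MCM2, MCM3, MCM4, MCM5, MCM6, MCM7, ORC3, GMNN, POLA1, POLD1, POLE, LIG1, RRM1, RRM2, TYMS, TK1, CCNE1, e2f2, e2f3, E2F7 and E2F8. GINS2, CDC6, PCNA and CCNE2 passed the test in mutants and not in wild types, and GINS4, ORC1 and PRIM1 passed it in wild types and not in mutants. RPA1 and POLE4 were lower in both, RRM2B was lower in mutants, and 27 members were called in neither. Being called in one genotype alone is no difference between them: the difference between the injury responses passed the test for none of these genes. How many of all genes were higher in both genotypes was not counted, so the 21 members have no such share beside them.

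**Figure D1:**
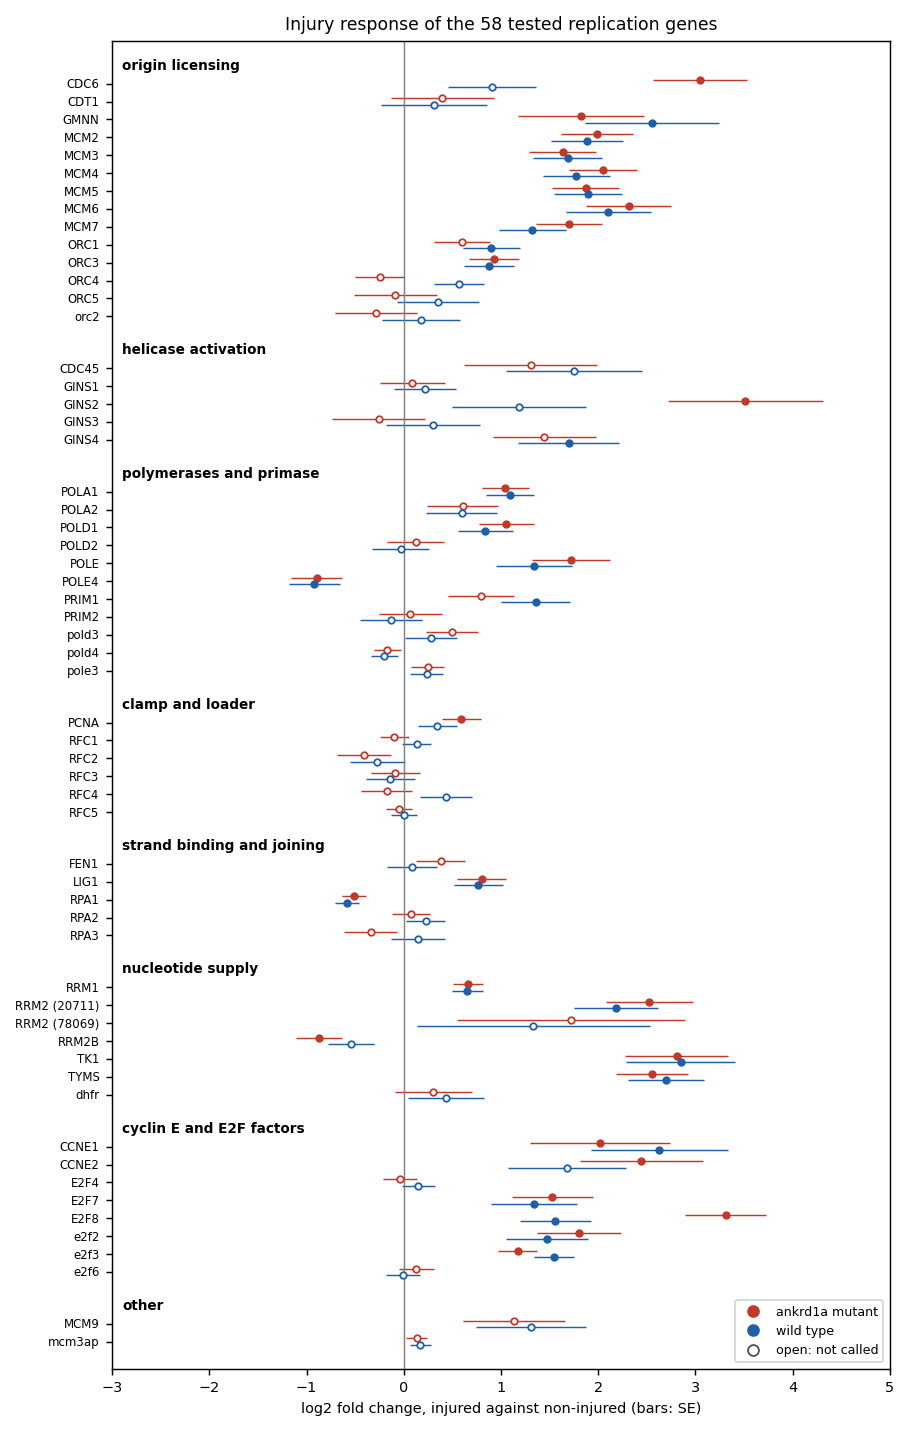
Log2 fold change of each of the 58 tested replication genes, injured against non-injured, in ankrd1a mutants (red) and wild types (blue), with bars of 1 standard error and genes grouped by role. Filled points passed the test over all genes. The MCM2 to MCM7 points lie between 1.32 and 2.31, while the RFC subunits lie between -0.41 and 0.43 with no filled point.

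All 6 tested subunits of the MCM helicase core, MCM2 to MCM7, were higher after injury in both genotypes, by 3.10-fold (MCM3) to 4.97-fold (MCM6) in mutants and by 2.5-fold (MCM7) to 4.29-fold (MCM6) in wild types. The ring they form unwinds DNA at the fork. Values below are CPM in replicates 1 to 4 of each group, in that order.

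MCM2 (ENSDARG00000102798) had 4.9, 11.4, 12.6 and 14.7 CPM in injured mutants, against 2.16, 4.97, 1.59 and 2.24 CPM in non-injured mutants. In wild types it had 7.63, 10.1, 6.57 and 5.83 CPM after injury, against 2.97, 1.52, 1.96 and 1.72 CPM without it. Injured mutant replicate 1 lay just under non-injured mutant replicate 2, and the wild type groups did not overlap; the log2 fold change was 1.99 (adjusted p = 0.00128, SE 0.37) in mutants and 1.88 (adjusted p = 0.00247, SE 0.37) in wild types.

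MCM4 (ENSDARG00000040041) had 4.95, 10.8, 9.78 and 11.9 CPM in injured mutants, against 1.29, 4.11, 1.43 and 2.18 CPM in non-injured mutants. In wild types it had 7.34, 8.86, 5.48 and 7.23 CPM after injury, against 2.55, 1.4, 2.48 and 2 CPM without it. The groups did not overlap in either genotype, with log2 fold changes of 2.05 (adjusted p = 0.000666, SE 0.35) in mutants and 1.78 (adjusted p = 0.00215, SE 0.35) in wild types.

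MCM6 (ENSDARG00000057683) had 3.83, 7.56, 10.1 and 11.3 CPM in injured mutants, against 0.808, 3.47, 1.06 and 1.22 CPM in non-injured mutants. In wild types it had 7.41, 9.11, 6.05 and 5.45 CPM after injury, against 2.49, 0.915, 1.76 and 1.36 CPM without it. MCM6 had the largest fold of the ring subunits in both genotypes, with no overlap, at a log2 fold change of 2.31 (adjusted p = 0.00151, SE 0.44) in mutants and 2.10 (adjusted p = 0.00332, SE 0.44) in wild types.

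MCM3 (ENSDARG00000024204) had 4.2, 7.33, 7.06 and 11.2 CPM in injured mutants, against 1.72, 4.33, 1.96 and 1.54 CPM in non-injured mutants. In wild types it had 5.52, 7.28, 5.1 and 4.23 CPM after injury, against 2.02, 1.52, 2.22 and 1.13 CPM without it. The mutant groups overlapped through injured replicate 1 and non-injured replicate 2, and the wild type groups did not. The log2 fold change was 1.63 (adjusted p = 0.00303, SE 0.35) in mutants and 1.68 (adjusted p = 0.00333, SE 0.35) in wild types. MCM5 and MCM7 averaged 7.27 ± 2.76 and 5.41 ± 1.21 CPM in injured mutants, against 1.97 ± 1.13 and 1.68 ± 1 CPM in non-injured mutants (SD, n = 4). In wild types they averaged 6.17 ± 1.03 and 3.59 ± 0.545 CPM after injury, against 1.67 ± 0.509 and 1.44 ± 0.52 CPM without it.

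**Figure D2:**
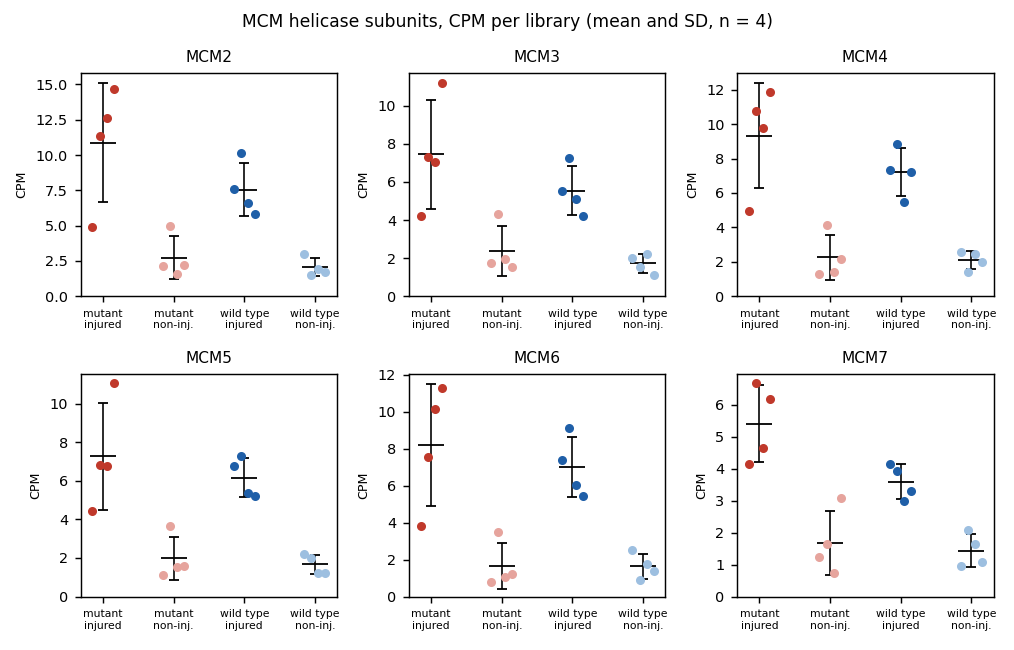
CPM of the 6 tested MCM subunits in each library (points), with the mean and SD of each group of 4 fish. In every panel the injured means lie above the non-injured ones, and for MCM2 and MCM3 injured mutant replicate 1 lies under non-injured mutant replicate 2.

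Summed over MCM2 to MCM7, the subunits had 26.5, 50.6, 51.0 and 66.3 CPM in injured mutants, against 8.35, 22.2, 8.29 and 11.8 CPM in non-injured mutants. In wild types the sum was 38.8, 46.6, 31.6 and 31.2 CPM after injury, against 13.2, 9.45, 11.3 and 8.53 CPM without it. No injured library fell below any non-injured one. Injured mutants spread most, from 26.5 to 66.3 CPM. Replicate 1 was the lowest of the injured mutants in 44 of the 58 members (75.9%, and 26.3% of all genes), and replicate 4 the highest in 37 (63.8%, and 23.0% of all genes). Non-injured mutant replicate 2 was the highest of its group in 23 members (39.7%, and 23.7% of all genes).

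Skin markers differed widely between libraries of a group. The 6 epidermis markers summed to 871, 317, 368 and 671 CPM in injured mutants, against 151, 752, 137 and 182 CPM in non-injured mutants. In wild types they summed to 1298, 612, 196 and 411 CPM after injury, against 1934, 306, 693 and 311 CPM without it. The non-injured library with the most epidermis RNA in each genotype, mutant replicate 2 and wild type replicate 1, was also the one with the highest MCM sum of its group. This did not hold among injured fish. Injured mutant replicate 1, with the most epidermis RNA, had the lowest MCM sum of its group, at 26.5 CPM. Injured wild type replicate 1, also with the most, had 38.8 CPM, below the 46.6 CPM of replicate 2. None of the 6 markers passed the test for injury in either genotype, which does not show that skin content was alike. Their median log2 fold change for injury was 1.04 in mutants and -0.25 in wild types. For mutants against wild types it was -1.67 in non-injured and -0.31 in injured fish. Without the 2 non-injured libraries named above the members called were 25 higher and 3 lower in mutants, and 22 higher and 3 lower in wild types. Without the library of each group with the most epidermis RNA they were 25 higher and 2 lower in mutants and 15 higher and 3 lower in wild types, so the wild type members called higher, 24 with all libraries, fell by more than 1.5 times. Over all genes, those called higher fell as well, from 1956 to 1238 in wild types and from 2306 to 1866 in mutants. Among the wild type calls lost in that fit were MCM7 (adjusted p = 0.0978), PRIM1 (adjusted p = 0.0609) and RRM1 (adjusted p = 0.0521).

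**Figure D3:**
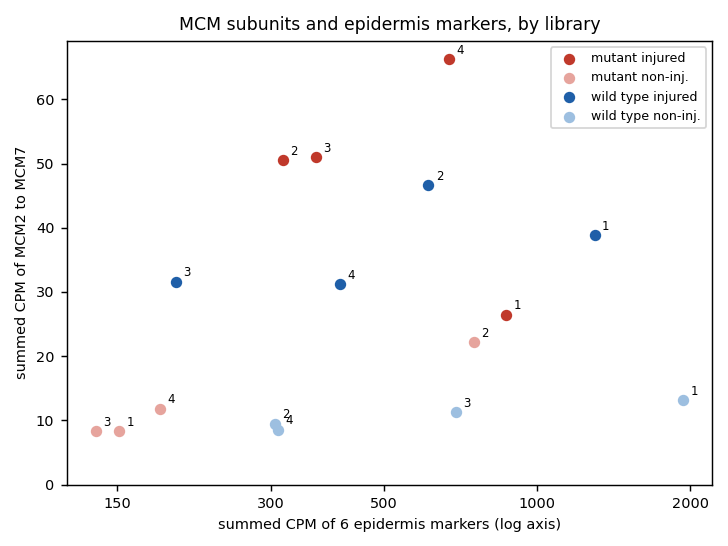
Summed CPM of MCM2 to MCM7 (vertical axis) against summed CPM of 6 epidermis markers (horizontal log axis) for each of the 16 libraries, numbered by replicate. All injured libraries lie above all non-injured ones on the vertical axis. Non-injured mutant replicate 2, at 752 and 22.2 CPM, lies nearest to injured mutant replicate 1, at 871 and 26.5 CPM. The part of skin content in the MCM sums was not tested.

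The factors that load the ring did not move as a block. ORC3, a subunit of the origin recognition complex, rose in both genotypes, to 2.2 ± 0.537 CPM in injured mutants against 1.15 ± 0.283 CPM in non-injured mutants (SD, n = 4) and to 1.84 ± 0.35 CPM against 1 ± 0.194 CPM in wild types. ORC1 rose in wild types (log2 fold change 0.90 (adjusted p = 0.035, SE 0.29)) and had a log2 fold change of 0.60 (adjusted p = 0.137, SE 0.29) in mutants. orc2, ORC4 and ORC5 passed the test in neither genotype, and their log2 fold changes lay between -0.29 and -0.09 in mutants and between 0.18 and 0.57 in wild types. The wild type calls were not firm: ORC3 lost its call without injured replicate 1 (adjusted p = 0.0717) and also without injured replicate 2 or non-injured replicate 2 or 4, and ORC1 lost its call in all but 2 of the fits that left out 1 library, with the highest adjusted p at 0.109 without injured replicate 2. ORC1 kept its call without injured replicate 3 or non-injured replicate 4.

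CDC6 (ENSDARG00000009942), which brings the ring to ORC, had 1.12, 1.2, 2.22 and 2.46 CPM in injured mutants, against 0.377, 0.214, 0.159 and 0.064 CPM in non-injured mutants. In wild types it had 0.835, 0.969, 0.52 and 0.507 CPM after injury, against 0.593, 0.183, 0.413 and 0.318 CPM without it. The mutant groups stood apart and the wild type groups overlapped, with a log2 fold change of 3.05 (adjusted p = 0.000411, SE 0.48) in mutants and 0.91 (adjusted p = 0.16, SE 0.45) in wild types. The difference between these responses was 2.14 (SE 0.66), with an unadjusted p below 0.05 and an adjusted p of 0.446. CDT1, its partner in loading, had a log2 fold change of 0.40 (adjusted p = 0.619, SE 0.53) in mutants and 0.31 (adjusted p = 0.723, SE 0.55) in wild types. GMNN encodes geminin, the inhibitor of CDT1, and rose to 0.657 ± 0.338 CPM in injured mutants against 0.18 ± 0.171 CPM in non-injured mutants, and to 0.649 ± 0.151 CPM against 0.103 ± 0.0701 CPM in wild types (SD, n = 4). In mutants its adjusted p was 0.0472, and leaving out any library other than injured or non-injured replicate 1 ended that call, with the highest adjusted p at 0.124 without non-injured replicate 3.

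The subunits that activate the loaded helicase were scarce and mostly did not pass the test. Of 5 tested, GINS2 rose in mutants and GINS4 in wild types. GINS4 had a log2 fold change of 1.70 (adjusted p = 0.0273) in wild types. In mutants it had 1.445 (adjusted p = 0.0534, SE 0.53), just short of the threshold, and the mutant groups did not overlap. GINS1 (ENSDARG00000007624), a subunit of the GINS complex, had 0.794, 0.553, 0.741 and 0.854 CPM in injured mutants, against 0.754, 0.481, 0.581 and 0.959 CPM in non-injured mutants. It had 1.45, 1.44, 1.13 and 0.93 CPM in injured wild types, against 0.534, 1.04, 1.08 and 1.59 CPM in non-injured wild types. Injured and non-injured values were interleaved in both genotypes (log2 fold change 0.09 (adjusted p = 0.871, SE 0.34) in mutants and 0.22 (adjusted p = 0.669, SE 0.32) in wild types). GINS3 (ENSDARG00000038847) had 0.98, 0.461, 0.642 and 0.603 CPM in injured mutants, against 1.08, 1.07, 0.792 and 0.256 CPM in non-injured mutants. It had 0.545, 0.933, 0.425 and 0.972 CPM in injured wild types, against 1.01, 0.305, 0.723 and 0.318 CPM in non-injured wild types. It was as interleaved as GINS1, at -0.26 (adjusted p = 0.727, SE 0.48) and 0.30 (adjusted p = 0.7, SE 0.48).

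GINS2 (ENSDARG00000002304) had 0.327, 0.415, 0.889 and 1.16 CPM in injured mutants, against 0.108, 0.107, 0 and 0 CPM in non-injured mutants. It had 0.69, 0.502, 0.236 and 0.169 CPM in injured wild types, against 0.0593, 0.305, 0.155 and 0.182 CPM in non-injured wild types. The mutant groups did not overlap and the wild type groups did, with log2 fold changes of 3.51 (adjusted p = 0.00472, SE 0.80) and 1.19 (adjusted p = 0.228, SE 0.69). CDC45 (ENSDARG00000043720), the partner of GINS in the active helicase, had 0.42, 0.599, 0.84 and 0.553 CPM in injured mutants, against 0.108, 0.267, 0.211 and 0.384 CPM in non-injured mutants. In wild types it had 0.799, 0.682, 0.614 and 0.381 CPM after injury, against 0.593, 0.061, 0 and 0.0907 CPM without it. Non-injured wild type replicate 1 was alone among its group in lying within the injured range. The log2 fold change was 1.31 (adjusted p = 0.172, SE 0.68) in mutants and 1.75 (adjusted p = 0.0818, SE 0.70) in wild types. Without non-injured wild type replicate 1 the wild type value passed the test (adjusted p = 0.00247). That fit drops the library that overlapped, so its pass is no added support for a rise. GINS4 in wild types lost its call without injured replicate 1 (adjusted p = 0.114) and also without non-injured replicate 2 or 4. MCM10, a further activator, was not tested, with 0.14 to 0.954 CPM in injured against 0 to 0.107 CPM in non-injured mutants and 0.251 to 0.508 CPM in injured against 0.0454 to 0.178 CPM in non-injured wild types.

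Among the polymerases the 3 catalytic subunits were called higher and no tested accessory subunit was, a split that was not itself tested. POLA1, POLD1 and POLE, which hold the active sites of polymerases alpha, delta and epsilon, were higher after injury in both genotypes. POLE4, a histone-fold subunit of polymerase epsilon, was lower in both.

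POLA1 (ENSDARG00000045308) had 2.8, 4.33, 4.35 and 5.53 CPM in injured mutants, against 1.4, 2.14, 2.64 and 2.05 CPM in non-injured mutants. It had 4.03, 3.87, 3.07 and 2.88 CPM in injured wild types, against 1.37, 2.13, 1.81 and 1.23 CPM in non-injured wild types. The groups did not overlap in either genotype, at log2 fold changes of 1.04 (adjusted p = 0.00565, SE 0.24) and 1.09 (adjusted p = 0.00542, SE 0.25). POLE, the leading strand polymerase, averaged 2.56 ± 0.809 CPM in injured against 0.771 ± 0.45 CPM in non-injured mutants and 2.54 ± 0.893 CPM in injured against 1 ± 0.372 CPM in non-injured wild types (SD, n = 4), at log2 fold changes of 1.72 (adjusted p = 0.00558, SE 0.40) and 1.34 (adjusted p = 0.0215, SE 0.39). POLD1, the catalytic subunit of the lagging strand polymerase, averaged 3.48 ± 1.36 CPM in injured against 1.67 ± 0.257 CPM in non-injured mutants and 2.98 ± 0.184 CPM in injured against 1.67 ± 0.644 CPM in non-injured wild types, at log2 fold changes of 1.05 (adjusted p = 0.0125, SE 0.28) and 0.84 (adjusted p = 0.0412, SE 0.28). Both calls for POLD1 rested on few libraries: the mutant one was lost without injured replicate 4 (adjusted p = 0.0518), and the wild type one without any library other than non-injured replicate 1, with the highest adjusted p at 0.109 without non-injured replicate 2. The wild type call for POLE was lost without injured replicate 1 (adjusted p = 0.0754), injured replicate 2 or non-injured replicate 3.

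POLE4 (ENSDARG00000013016) had 1.82, 2.44, 4.2 and 2.51 CPM in injured mutants, against 4.31, 5.93, 5.34 and 4.86 CPM in non-injured mutants. It had 2.8, 2.51, 3.45 and 3 CPM in injured wild types, against 3.09, 7.26, 5.89 and 5.99 CPM in non-injured wild types. All injured mutants lay below all non-injured ones, while in wild types non-injured replicate 1 fell within the injured range. The log2 fold change was -0.90 (adjusted p = 0.0186, SE 0.26) in mutants and -0.92 (adjusted p = 0.0178, SE 0.26) in wild types. Leaving out injured mutant replicate 1 (adjusted p = 0.0579) or 2 ended the mutant call, and leaving out injured wild type replicate 2 (adjusted p = 0.058) or non-injured wild type replicate 2 ended the wild type call.

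pole3 (ENSDARG00000008551), the histone-fold partner of POLE4, had 6.07, 4.98, 5.58 and 4.27 CPM in injured mutants, against 3.88, 4.38, 4.39 and 4.99 CPM in non-injured mutants. It had 4.94, 3.19, 4.21 and 3.43 CPM in injured wild types, against 3.62, 2.8, 3.82 and 3.13 CPM in non-injured wild types. Its groups overlapped, with log2 fold changes of 0.25 (adjusted p = 0.3, SE 0.17) and 0.24 (adjusted p = 0.341, SE 0.17). pold4 (ENSDARG00000079632), the smallest subunit of polymerase delta, had 6.58, 7.19, 7.46 and 6.98 CPM in injured mutants, against 7.33, 7.69, 8.19 and 8.51 CPM in non-injured mutants. It had 6.25, 6.49, 6.81 and 5.92 CPM in injured wild types, against 6.05, 9.69, 6.3 and 7.26 CPM in non-injured wild types. Its groups overlapped too, with log2 fold changes of -0.17 (adjusted p = 0.389, SE 0.14) and -0.20 (adjusted p = 0.312, SE 0.14).

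POLD2, pold3, POLA2 and PRIM2, further subunits of polymerases delta and alpha and of primase, passed the test in neither genotype, with log2 fold changes between 0.07 and 0.60 in mutants and between -0.13 and 0.59 in wild types. Of these POLA2 had 0.60 (SE 0.36) in mutants and 0.59 (SE 0.37) in wild types, and pold3 had 0.49 (SE 0.27) in mutants with no overlap. PRIM1, which holds the active site of primase, rose in wild types to 1.39 ± 0.29 CPM against 0.538 ± 0.27 CPM (SD, n = 4; log2 fold change 1.36 (adjusted p = 0.0123, SE 0.35)). In mutants it had 1.66 ± 0.502 CPM after injury and 0.959 ± 0.249 CPM without it (0.79 (adjusted p = 0.0966, SE 0.34)). The difference between its responses was -0.56 (adjusted p = 0.878, SE 0.49).

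Of the 6 genes of the clamp and its loader, PCNA rose in mutants, and no RFC subunit passed the test in either genotype. PCNA (ENSDARG00000054155), the ring that tethers polymerases to DNA, had 16, 26.8, 25.3 and 33.9 CPM in injured mutants, against 14.7, 20.5, 16.2 and 16.4 CPM in non-injured mutants. It had 20.6, 21.3, 15.4 and 16.5 CPM in injured wild types, against 11.4, 16.4, 16.5 and 13.8 CPM in non-injured wild types. The groups overlapped in both genotypes, at log2 fold changes of 0.59 (adjusted p = 0.0376, SE 0.20) and 0.35 (adjusted p = 0.226, SE 0.20). The mutant call was kept without injured replicate 1 or non-injured replicate 2 and lost without any other of the libraries compared, with the highest adjusted p at 0.136 without injured replicate 4.

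RFC1 (ENSDARG00000054799), the large loader subunit, had 5.37, 6.22, 7.46 and 7.63 CPM in injured mutants, against 7.38, 6.41, 7.55 and 7.16 CPM in non-injured mutants. It had 6.06, 6.31, 5.81 and 4.44 CPM in injured wild types, against 4.69, 5.55, 4.75 and 5.67 CPM in non-injured wild types. RFC5 (ENSDARG00000035634) had 4.01, 4.33, 4.35 and 5.12 CPM in injured mutants, against 4.04, 4.92, 4.65 and 4.86 CPM in non-injured mutants. It had 4.68, 5.2, 5.06 and 4.31 CPM in injured wild types, against 4.45, 4.09, 5.01 and 5.63 CPM in non-injured wild types. RFC2 (ENSDARG00000014274) had 2.05, 3.32, 3.66 and 4.62 CPM in injured mutants, against 3.83, 3.05, 5.07 and 6.2 CPM in non-injured mutants. It had 3.41, 3.44, 2.84 and 2.49 CPM in injured wild types, against 3.86, 5.06, 3.72 and 2.18 CPM in non-injured wild types. Injured and non-injured values overlapped for each of the 3 in both genotypes. Their log2 fold changes in mutants were -0.10 (adjusted p = 0.663, SE 0.15) for RFC1, -0.05 (adjusted p = 0.809, SE 0.14) for RFC5 and -0.41 (adjusted p = 0.302, SE 0.28) for RFC2. In wild types they were 0.13 (adjusted p = 0.557, SE 0.15), 0.00 (adjusted p = 0.985, SE 0.14) and -0.27 (adjusted p = 0.523, SE 0.28) in the same order.

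Single strand binding and strand joining parted. RPA1, the large subunit of RPA, was lower after injury in both genotypes, LIG1, the ligase that seals Okazaki fragments, was higher in both, and RPA2, RPA3 and FEN1 passed the test in neither. RPA1 (ENSDARG00000003938) had 18.1, 20.3, 19.6 and 24.4 CPM in injured mutants, against 29.9, 30.6, 27.7 and 29 CPM in non-injured mutants. It had 17.2, 18.5, 18.3 and 20.3 CPM in injured wild types, against 23.3, 29.2, 25.4 and 33.7 CPM in non-injured wild types. Every injured library lay below every non-injured one of its genotype, at log2 fold changes of -0.51 (adjusted p = 0.00712, SE 0.12) and -0.59 (adjusted p = 0.00363, SE 0.12).

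RPA2 (ENSDARG00000037188) had 4.39, 4.88, 4.54 and 5.88 CPM in injured mutants, against 3.13, 4.54, 4.49 and 6.59 CPM in non-injured mutants. It had 3.27, 3.98, 4.02 and 3.38 CPM in injured wild types, against 2.49, 3.23, 3.77 and 3.04 CPM in non-injured wild types. It overlapped in both genotypes, at log2 fold changes of 0.07 (adjusted p = 0.813, SE 0.20) and 0.22 (adjusted p = 0.458, SE 0.20), and RPA3 had -0.34 (SE 0.28) in mutants and 0.14 (SE 0.28) in wild types. LIG1 (ENSDARG00000060041) had 3.83, 6.82, 4.94 and 7.13 CPM in injured mutants, against 2.43, 4.01, 3.7 and 2.88 CPM in non-injured mutants. It had 3.89, 6.49, 3.12 and 4.14 CPM in injured wild types, against 2.61, 2.26, 2.32 and 3.18 CPM in non-injured wild types. The groups touched in both genotypes, at log2 fold changes of 0.80 (adjusted p = 0.0269, SE 0.25) and 0.77 (adjusted p = 0.0387, SE 0.25). Its mutant call was lost without injured replicate 4 (adjusted p = 0.0845) or 2 or non-injured replicate 1 or 4, and its wild type call without injured replicate 2 (adjusted p = 0.157) or 1 or non-injured replicate 1, 2 or 3. FEN1 (ENSDARG00000011404), the flap nuclease that trims Okazaki fragments, had 2.47, 4.52, 4.64 and 5.63 CPM in injured mutants, against 2.37, 2.94, 3.43 and 4.54 CPM in non-injured mutants. It had 3.49, 4.23, 2.88 and 3.04 CPM in injured wild types, against 3.38, 4.21, 2.84 and 2.5 CPM in non-injured wild types. Its values overlapped, at log2 fold changes of 0.38 (adjusted p = 0.292, SE 0.26) and 0.09 (adjusted p = 0.842, SE 0.26).

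The genes of deoxynucleotide supply split between rises and a fall. Ribonucleotide reductase pairs the large subunit RRM1 with either RRM2, the small subunit made in S phase, or RRM2B, the small subunit known in mammals as a p53 target that serves resting and damaged cells. RRM1 and RRM2 rose in both genotypes and RRM2B fell in mutants. RRM1 (ENSDARG00000014017) had 8.45, 10.4, 11.2 and 12.9 CPM in injured mutants, against 6.25, 6.63, 7.4 and 6.78 CPM in non-injured mutants. It had 9.95, 8.65, 7.7 and 7.7 CPM in injured wild types, against 5.34, 5.24, 6.71 and 4.31 CPM in non-injured wild types. The groups did not overlap, at log2 fold changes of 0.66 (adjusted p = 0.00545, SE 0.15) and 0.66 (adjusted p = 0.00708, SE 0.16).

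RRM2 is carried by 2 IDs between which reads were shared: 81.25% of the values above 0 of one and all of the other's were not whole numbers. The ID ENSDARG00000020711 had 3.97, 4.61, 5.58 and 11.8 CPM in injured mutants, against 0.647, 1.12, 1.8 and 0.895 CPM in non-injured mutants. It had 10.9, 5.24, 7.04 and 3.13 CPM in injured wild types, against 1.25, 1.59, 1.96 and 0.998 CPM in non-injured wild types. The ID ENSDARG00000078069 had 2.57, 4.93, 3.9 and 0.251 CPM in injured mutants, against 1.56, 1.07, 0 and 0.895 CPM in non-injured mutants. It had 0.363, 3.34, 0 and 3.3 CPM in injured wild types, against 1.66, 0.366, 0 and 0.771 CPM in non-injured wild types. In injured mutant replicate 4 and injured wild type replicates 1 and 3 nearly all of the sum lay on the first ID, so each ID alone is uncertain. The first passed the test (log2 fold change 2.53 (adjusted p = 0.000867, SE 0.44) in mutants and 2.19 (adjusted p = 0.00237, SE 0.43) in wild types) and the second did not (1.72 (adjusted p = 0.302, SE 1.18) and 1.33 (adjusted p = 0.457, SE 1.20)). Summed over both IDs, RRM2 had 6.54, 9.54, 9.48 and 12.1 CPM in injured mutants, against 2.21, 2.19, 1.80 and 1.79 CPM in non-injured mutants. The sum in wild types was 11.3, 8.57, 7.04 and 6.43 CPM after injury, against 2.91, 1.95, 1.96 and 1.77 CPM without it. With the IDs counted as 1 gene, a choice made after seeing the data, every injured library stood above every non-injured one, by 4.69-fold in mutants (log2 2.23, adjusted p = 1e-05, SE 0.23) and 3.89-fold in wild types (log2 1.96, adjusted p = 3.58e-05, SE 0.23).

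RRM2B (ENSDARG00000033367) had 34.9, 35.9, 43.1 and 36.7 CPM in injured mutants, against 75.7, 61.5, 62.5 and 76.3 CPM in non-injured mutants. It had 25.1, 28.7, 36.1 and 35.1 CPM in injured wild types, against 21.4, 48.2, 48.8 and 63.3 CPM in non-injured wild types. All injured mutants lay below all non-injured mutants, while non-injured wild type replicate 1 lay below every injured wild type. The log2 fold change was -0.87 (adjusted p = 0.0126, SE 0.24) in mutants and -0.54 (adjusted p = 0.108, SE 0.24) in wild types. Without non-injured wild type replicate 1 the wild type value also passed the test (adjusted p = 0.00301). That fit drops the library that went against a fall, so its pass is no added support for one. The difference between the responses of the genotypes was -0.33 (adjusted p = 0.906, SE 0.33).

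The 3 falls depended on how libraries were scaled. With scaling by library size alone, the median log2 fold change of all genes shifted to 0.26 in mutants and 0.34 in wild types, and the members called became 26 higher and 0 lower in mutants and 30 higher and 0 lower in wild types. All genes moved the same way. In mutants 3108 were called higher and 779 lower, against 2306 and 2190 in the main fit. In wild types 3673 were called higher and 537 lower, against 1956 and 1971. Under that scaling RPA1 had a log2 fold change of -0.24 (adjusted p = 0.333) in mutants and -0.23 (adjusted p = 0.343) in wild types, POLE4 had -0.64 (adjusted p = 0.082) and -0.54 (adjusted p = 0.128), and RRM2B in mutants had -0.59 (adjusted p = 0.0709). All kept their sign, and none passed the test.

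**Figure D4:**
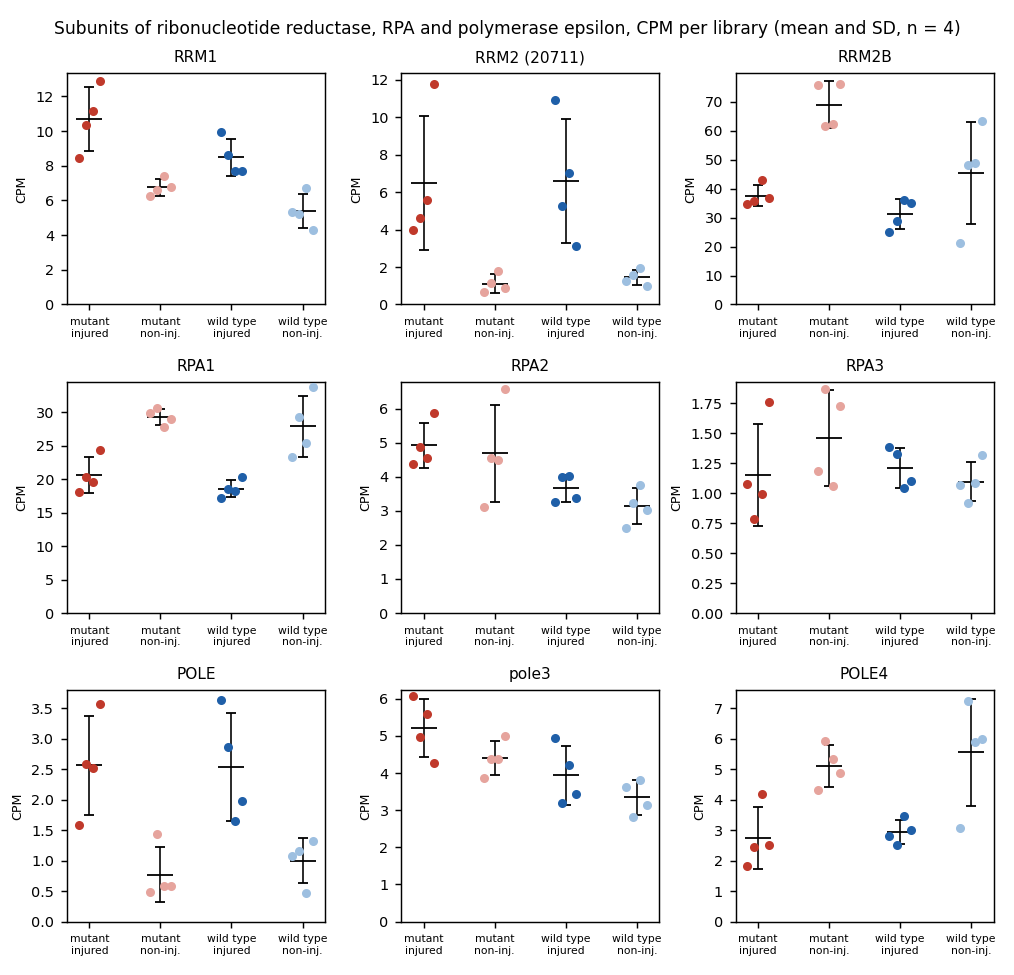
CPM per library (points) with mean and SD of each group of 4 fish for subunits of ribonucleotide reductase (top row), RPA (middle row) and polymerase epsilon (bottom row). RRM1, RRM2 (ENSDARG00000020711) and POLE are higher in injured fish, RPA1 and POLE4 are lower, and RPA2, RPA3 and pole3 overlap.

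TYMS, which makes thymidylate, and TK1, the thymidine kinase of S phase, rose in both genotypes at low levels. TYMS averaged 2.52 ± 0.527 CPM in injured against 0.419 ± 0.204 CPM in non-injured mutants and 1.61 ± 0.508 CPM in injured against 0.247 ± 0.0771 CPM in non-injured wild types (SD, n = 4; log2 fold change 2.55 (adjusted p = 0.000196, SE 0.37) and 2.7 (adjusted p = 0.00027, SE 0.39)). TK1 averaged 1.21 ± 0.641 CPM in injured against 0.166 ± 0.0953 CPM in non-injured mutants and 0.814 ± 0.264 CPM in injured against 0.111 ± 0.0534 CPM in non-injured wild types (2.81 (adjusted p = 0.00139, SE 0.53) and 2.85 (adjusted p = 0.00229, SE 0.56)). Neither gene's groups overlapped in either genotype. dhfr, which regenerates the folate that TYMS uses, passed the test in neither genotype (0.30 (adjusted p = 0.607, SE 0.40) and 0.43 (adjusted p = 0.463, SE 0.40)).

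Of the 10 E2F and cyclin E genes 8 were tested. The activators e2f2 and e2f3 and the atypical repressors E2F7 and E2F8 rose in both genotypes, and so did CCNE1, while E2F4 and e2f6, known in mammals as repressors, did not pass the test. E2F1 was too scarce to test.

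e2f3 (ENSDARG00000070463) had 4.39, 6.13, 4.05 and 6.48 CPM in injured mutants, against 2.43, 3.05, 2.06 and 1.79 CPM in non-injured mutants. It had 5.01, 4.81, 4.4 and 4.78 CPM in injured wild types, against 1.48, 1.95, 1.24 and 1.82 CPM in non-injured wild types. e2f2 (ENSDARG00000079233) had 1.03, 1.48, 2.57 and 1.36 CPM in injured mutants, against 0.862, 0.427, 0.211 and 0.32 CPM in non-injured mutants. It had 1.31, 1.76, 1.28 and 1.95 CPM in injured wild types, against 0.653, 0.244, 0.516 and 0.817 CPM in non-injured wild types. Neither overlapped in either genotype. The log2 fold changes were 1.17 (adjusted p = 0.000774, SE 0.20) and 1.55 (adjusted p = 0.000139, SE 0.21) for e2f3 in mutants and wild types, and 1.80 (adjusted p = 0.00664, SE 0.43) and 1.47 (adjusted p = 0.0194, SE 0.42) for e2f2, whose wild type call was lost without injured replicate 2 (adjusted p = 0.0508).

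E2F4 (ENSDARG00000101578) had 6.68, 9.03, 7.16 and 6.33 CPM in injured mutants, against 9.05, 6.52, 7.45 and 6.97 CPM in non-injured mutants. It had 5.34, 6.39, 6.38 and 7.31 CPM in injured wild types, against 4.03, 6.46, 5.89 and 6.49 CPM in non-injured wild types. e2f6 (ENSDARG00000008119) had 4.15, 3.36, 3.75 and 4.27 CPM in injured mutants, against 3.88, 3.85, 3.65 and 2.81 CPM in non-injured mutants. It had 4.43, 4.02, 4.77 and 3.04 CPM in injured wild types, against 3.98, 4.88, 4.44 and 3.13 CPM in non-injured wild types. The injured and non-injured values of both genes overlapped, and their log2 fold changes lay between -0.04 and 0.15.

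E2F8 rose to 1.44 ± 0.47 CPM in injured mutants, against 0.142 ± 0.061 CPM in non-injured mutants, and to 1.2 ± 0.196 CPM in injured wild types, against 0.403 ± 0.177 CPM in non-injured wild types (SD, n = 4; log2 fold change 3.31 (adjusted p = 5.85e-05, SE 0.42) and 1.56 (adjusted p = 0.00647, SE 0.36)). E2F7 rose by 1.53 (adjusted p = 0.0133, SE 0.42) in mutants and 1.34 (adjusted p = 0.038, SE 0.44) in wild types on the log2 scale. Its mutant call was lost without injured replicate 2 (adjusted p = 0.0508), and its wild type call was kept only without injured replicate 4 or non-injured replicate 3 among fits that left out 1 library, with the highest adjusted p at 0.107 without non-injured replicate 4. CCNE1, a cyclin that drives entry into S phase, averaged 0.74 ± 0.362 CPM in injured against 0.174 ± 0.135 CPM in non-injured mutants and 1.12 ± 0.358 CPM in injured against 0.179 ± 0.206 CPM in non-injured wild types. Its log2 fold change was 2.02 (adjusted p = 0.0476, SE 0.72) in mutants and 2.63 (adjusted p = 0.0142, SE 0.71) in wild types, and the mutant call was kept without injured or non-injured replicate 1 and lost without any other library compared, up to an adjusted p of 0.138 without injured replicate 4. CCNE2, its paralog, had 2.44 (adjusted p = 0.0101, SE 0.63) in mutants and 1.68 (adjusted p = 0.0569, SE 0.61) in wild types.

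Of the members that match by name and act outside the fork, mcm3ap (ENSDARG00000021402), which encodes a factor of mRNA export, had 13.7, 12.4, 13.4 and 12.5 CPM in injured mutants, against 12.2, 12.1, 11 and 12 CPM in non-injured mutants. It had 13.4, 11.2, 14.6 and 15.4 CPM in injured wild types, against 12.3, 11.2, 11.8 and 13.3 CPM in non-injured wild types. MCM9 (ENSDARG00000013528), a helicase of recombination repair, had 0.373, 0.507, 0.741 and 1.36 CPM in injured mutants, against 0.216, 0.321, 0.423 and 0.384 CPM in non-injured mutants. It had 0.254, 0.646, 0.378 and 0.423 CPM in injured wild types, against 0.0593, 0.061, 0.207 and 0.318 CPM in non-injured wild types. Neither passed the test: mcm3ap had log2 fold changes of 0.13 (adjusted p = 0.386, SE 0.11) and 0.17 (adjusted p = 0.276, SE 0.11), and MCM9 of 1.13 (adjusted p = 0.12, SE 0.52) and 1.31 (adjusted p = 0.105, SE 0.57).

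**Figure D5:**
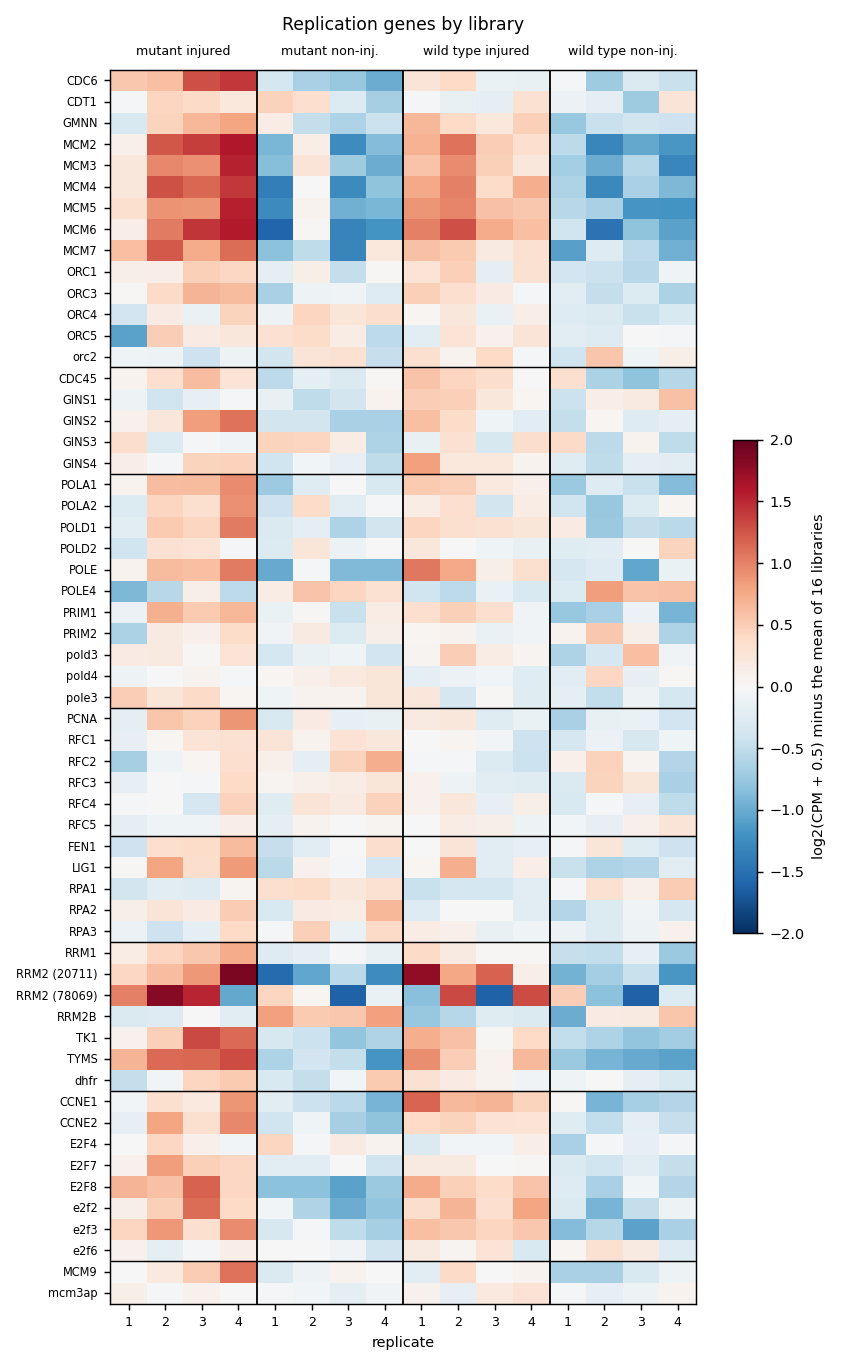
Log2(CPM + 0.5) of each tested replication gene minus its mean over the 16 libraries, with libraries in columns by group and genes in rows by role. The MCM rows are high in both injured groups, and the 2 RRM2 IDs alternate within groups. The RPA1, POLE4 and RRM2B rows are mostly low in the injured groups, but injured mutant replicate 3 is not low for POLE4 or RRM2B. Non-injured wild type replicate 1 is low in the POLE4 and RRM2B rows as well.

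Between genotypes no replication gene passed the test. Among injured fish, 0 of 58 members differed between mutants and wild types by edgeR, against 1.48% of all genes, with 6 at an unadjusted p below 0.05 and a lowest adjusted p of 0.148 (CDC6). Among non-injured fish the count was also 0, against 2.83% of all genes, with 10 at an unadjusted p below 0.05 and a lowest adjusted p of 0.0835. DESeq2 and limma-voom likewise called 0 members in each state, with 6 and 8 at an unadjusted p below 0.05 in injured fish and 9 and 6 in non-injured fish. The share of all genes at an unadjusted p below 0.05 is not given, here or for the difference between responses. The unadjusted counts are therefore not read as an excess. The median log2 fold change of the members, mutant against wild type, was 0.22 in injured and 0.24 in non-injured fish, and 42 of the 58 were above 0 in each. Over all genes tested the median was -0.001 in injured and -0.01 in non-injured fish. The members are not independent of each other, so the count above 0 is not a test. The injured median was 0.08 without injured mutant replicate 4 and 0.32 without injured mutant replicate 1. A value that missed the threshold does not show that the genotypes were alike.

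The lowest p between non-injured groups was that of E2F8, with 0.162, 0.16, 0.0528 and 0.192 CPM in mutants, against 0.475, 0.244, 0.62 and 0.272 CPM in wild types. All non-injured mutants lay below all non-injured wild types, at a log2 fold change of -1.48 (adjusted p = 0.0835, SE 0.44). Among injured fish CDC6 had 1.12, 1.2, 2.22 and 2.46 CPM in mutants, against 0.835, 0.969, 0.52 and 0.507 CPM in wild types, and the groups did not overlap either (log2 fold change 1.29, adjusted p = 0.148, SE 0.42). Groups without overlap were found for 5 of 58 members in each state, which is 8.62% of them, beside 11.8% of all genes without overlap in injured and 9.04% in non-injured fish. For the MCM ring the mutant against wild type log2 fold changes ran from 0.22 to 0.59 in injured and from 0.01 to 0.48 in non-injured fish.

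The responses themselves differed between genotypes for 0 of 58 members by edgeR, against 0.0606% of all genes, with 4 at an unadjusted p below 0.05. DESeq2 and limma-voom also called 0, with 4 and 3 at an unadjusted p below 0.05. The 4 were CDC6 (2.14, adjusted p = 0.446, SE 0.66), E2F8 (1.75, adjusted p = 0.448, SE 0.55), GINS2 (2.33, adjusted p = 0.679, SE 1.08) and ORC4 (-0.81, adjusted p = 0.661, SE 0.36), where a positive log2 value means a larger rise in mutants. The median difference over the members was 0.01, and over all genes it was also 0.01.

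Lists of genes that work beside the machinery were called in shares from near that of all genes, 27.2% in mutants and 23.8% in wild types, to well above it. Some partner genes lay near or under the filter minimum of 0.52 CPM in non-injured fish, so injured libraries helped them pass it. CDK1 had 0.162 to 0.427 CPM in non-injured mutants, and WDHD1 had 0.103 to 0.244 CPM in non-injured wild types. Such genes were not counted per list, so the limit given for the members holds for these shares and rises too. Of 11 tested initiation factors and S phase kinases, 5 were higher after injury in mutants and 5 in wild types, with 0 lower in either (45.5% called in each). CDK1, the kinase of mitotic entry, averaged 2.92 ± 0.788 CPM in injured against 0.275 ± 0.122 CPM in non-injured mutants and 2.35 ± 0.643 CPM in injured against 0.575 ± 0.269 CPM in non-injured wild types (SD, n = 4; log2 fold change 3.37, adjusted p = 5.26e-05, SE 0.42 and 2.05, adjusted p = 0.00167, SE 0.38). WDHD1, which ties the helicase to polymerase alpha, rose by a log2 of 2.59 (adjusted p = 0.000394, SE 0.41) in mutants and 3.0 (adjusted p = 0.000244, SE 0.43) in wild types. CCNA2, the cyclin of S and G2 phase, rose by 2.88 (adjusted p = 0.00119, SE 0.53) and 2.25 (adjusted p = 0.0054, SE 0.51).

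Of 16 tested partners of the fork and the clamp, 6 were higher and 2 lower in mutants, and 4 higher and 2 lower in wild types (50.0% and 37.5% called). TOP2A, the topoisomerase that untangles replicated DNA, averaged 10.2 ± 3.36 CPM in injured against 1.33 ± 0.584 CPM in non-injured mutants and 9.06 ± 1.35 CPM in injured against 2.21 ± 0.834 CPM in non-injured wild types (SD, n = 4; adjusted p = 3.79e-05 and 0.000649). atad5a, whose product takes PCNA off DNA, rose by a log2 of 1.24 (adjusted p = 0.00264, SE 0.26) in mutants and 1.19 (adjusted p = 0.00376, SE 0.25) in wild types. RNASEH2B, a subunit of the enzyme that removes ribonucleotides from DNA, fell to 4.39 ± 0.429 CPM in injured mutants against 7.54 ± 0.844 CPM in non-injured mutants, and to 4.11 ± 0.464 CPM in injured wild types against 6.48 ± 1.07 CPM in non-injured wild types (adjusted p = 0.0013 and 0.00467).

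Of 14 tested genes of chromatin assembly and maintenance methylation, 8 were higher in mutants and 10 in wild types, with 0 lower in either (57.1% and 71.4% called). chaf1a, the large subunit of the chaperone that lays histones behind the fork, averaged 6.04 ± 0.977 CPM in injured against 1.29 ± 0.443 CPM in non-injured mutants and 5.06 ± 0.608 CPM in injured against 1.22 ± 0.465 CPM in non-injured wild types (SD, n = 4; adjusted p = 4.29e-05 and 0.000108). DNMT1, the maintenance methyltransferase, rose by a log2 of 1.51 (adjusted p = 0.000126, SE 0.21) in mutants and 0.72 (adjusted p = 0.018, SE 0.20) in wild types, and UHRF1, which guides it to new DNA, rose by 1.60 (adjusted p = 0.00147, SE 0.30) in mutants and 2.17 (adjusted p = 0.000253, SE 0.31) in wild types. The difference between responses passed the test for neither. The list's median log2 fold change was 1.49 in mutants and 0.93 in wild types.

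Of 20 further nucleotide enzymes tested, 7 were higher and 1 lower in mutants, and 4 higher and 1 lower in wild types. The share called was 40.0% in mutants and 25.0% in wild types, the wild type one near that of all genes. IMPDH1, of guanine nucleotide synthesis, averaged 6.34 ± 0.663 CPM in injured against 2.42 ± 0.464 CPM in non-injured mutants and 7.60 ± 0.664 CPM in injured against 3.19 ± 1.1 CPM in non-injured wild types (SD, n = 4; adjusted p = 0.000244 and 0.000581). UMPS, of pyrimidine synthesis, rose by a log2 of 1.12 (adjusted p = 0.00152, SE 0.22) in mutants and 0.83 (adjusted p = 0.0113, SE 0.21) in wild types. CTPS1, which makes CTP, fell to 16.2 ± 1.18 CPM in injured against 32.8 ± 13.7 CPM in non-injured mutants and to 17.8 ± 2.78 CPM in injured against 38.8 ± 12.3 CPM in non-injured wild types (log2 fold change -1.02, adjusted p = 0.011, SE 0.27 and -1.13, adjusted p = 0.00705, SE 0.27).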

How the data were processed

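Per the labels' protocols, libraries of 16 fish came from poly A RNA and a kit that keeps strand. The authors deposited estimated counts per gene, the unit of RSEM, in which reads that fit several genes are shared between them. The submitters' processing notes list RSEM 1.3.3, fastp 0.23.4 and STAR in versions 2.7.10 and 2.7.0. Build, annotation and counting strand were not given in the sources used. Of the values above 0, 91.13% were whole, and all were rounded before testing. Symbols came from a table that named 29201 of the 32520 IDs. In R 4.3.3, edgeR 4.0.16 kept 16514 genes (filterByExpr, minimum count 10, minimum total 15), scaled libraries by TMM and fitted 1 mean per group to all 16 libraries with a robust quasi-likelihood model. The biological coefficient of variation was 31.3%. Tests were two-sided over 5 contrasts, with Benjamini-Hochberg adjustment over all genes tested and calls below 0.05. Every adjusted p is from this test unless another tool is named. Standard errors were derived from the F statistic. The test was checked on simulated counts. DESeq2 1.42.0 and limma-voom (limma 3.58.1), other scalings and filters and leaving out each library were tried as alternatives.

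Members, roles and the 15 lists of partner and marker genes (171 symbols, 12 of which matched no gene) were chosen with earlier results of these data known. Values in every library are given for up to 4 members per role with the highest mean CPM and for members called lower. Partner genes are named among the called ones with the smallest p, up to 4 per list and contrast. CDC6 and E2F8 were shown per library after their values were seen.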

Additional observations from a re-analysis of the deposited data

Results flagged for a closer look

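In 7 of 232 groups of 4 libraries, 1 library of a group stood far from the other 3 in a replication gene, where chance alone gives about 1 in 20. Non-injured mutant replicate 2 was the high one in 3 of them. MCM3 had 4.33 CPM there and 1.54 to 1.96 CPM in the rest of its group, MCM6 (ENSDARG00000057683) had 3.47 CPM there and 0.808 to 1.22 CPM in the rest, and POLE had 1.44 CPM there and 0.485 to 0.581 CPM in the rest. CDC45 had 0.593 CPM in non-injured wild type replicate 1 and 0 to 0.0907 CPM in the rest of that group. GINS4 had 0.908 CPM in injured wild type replicate 1 and 0.338 to 0.431 CPM in the rest. orc2 was low in injured mutant replicate 3, at 0.346 CPM, beside 0.553 to 0.560 CPM in the rest. mcm3ap was low in non-injured mutant replicate 3, at 11 CPM, beside 12 to 12.2 CPM in the rest.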

How the results depend on the processing

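Leaving out each library in turn gave 23 to 28 called members for injury in mutants and 18 to 25 in wild types, and 21 of 28 and 17 of 26 calls held without any 1 library. The counts between genotypes and for the difference between responses were 0 in every setting run. For injury, DESeq2 called 28 and 27, limma-voom 25 and 23, DESeq2 size factors 28 and 26, no filter on low counts 27 and 21, non-robust dispersions 29 and 26, and only the groups compared 26 and 22 in mutants and wild types. Library size alone gave 26 and 30, as 26 higher and 0 lower and 30 higher and 0 lower. The calls over all genes moved between these fits too. In wild types they were 1392 higher and 1151 lower with only the groups compared, and 3673 higher and 537 lower with library size alone. In mutants they were 2494 higher and 2270 lower, and 3108 higher and 779 lower, in the same order. DESeq2 called 2532 higher and 2520 lower in mutants, and 2230 and 2342 in wild types. Leaving out a library lowered the calls over all genes in each such mutant fit, but not in every wild type one. Without injured wild type replicate 4 they rose to 2034 higher and 2169 lower, while 24 members were called, against 26 in the main fit. Without injured wild type replicate 2 the calls over all genes were 1430 higher and 1204 lower, against 1956 and 1971 in the main fit. Without injured mutant replicate 4 they were 1892 higher and 1653 lower, against 2306 and 2190. Some calls for GMNN, PCNA, CCNE1, ORC1, GINS4, POLD1, LIG1 and E2F7 were lost in 1 or more fits with another tool, filter or set of groups. These genes also lost a call in fits without 1 library, as did ORC3, POLE and e2f2 in wild types and POLE4 in both genotypes. The calls for RPA1, POLE4 and RRM2B were lost with library size alone. No member changed sign with a call on either side, and the cause of the losses was not tested. The replicate number as a block gave 26 members called in mutants and 24 in wild types; same-numbered libraries correlated in their deviations from group means with r from -0.194 to 0.0619 in mutants and 0.0532 to 0.344 in wild types, where 3 of 4 pairs were over 0.1, so in neither genotype was every pair above 0.1 and the numbers were not taken to pair the fish. Chosen after seeing the data, the fits without 2 libraries high in epidermis markers called 28 and 25, those without 1 such library per group 27 and 18, and those with the RRM2 IDs summed 28 and 26. Members under about 0.5 CPM rest on few counts, and their fold changes are imprecise.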

Other observations

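A list of cell cycle brakes and genes around the Rb family moved in both directions after injury. Of 15 tested, 4 were higher and 3 lower in mutants, and 1 was higher and 4 lower in wild types. The genes called lower include tfdp2, which is not a brake. Its log2 fold change was -0.67 (SE 0.18, adjusted p = 0.0127) in mutants and -0.63 (SE 0.18, adjusted p = 0.0202) in wild types. In either direction that is 46.7% and 33.3% of the list, beside 27.2% and 23.8% of all genes, and the share called higher in wild types was below that of all genes. RB1, the retinoblastoma protein that holds E2F factors in check, averaged 4.43 ± 0.528 CPM in injured against 1.61 ± 0.198 CPM in non-injured mutants and 3.81 ± 0.667 CPM in injured against 1.41 ± 0.173 CPM in non-injured wild types (SD, n = 4). Its log2 fold change was 1.46 (SE 0.17, adjusted p = 3.53e-05) in mutants and 1.43 (SE 0.17, adjusted p = 5.7e-05) in wild types. RB1 RNA was thus higher alongside that of e2f2 and e2f3, and the activity of its protein was not measured. Between genotypes 1 of the 15 was called in each state (6.67%, beside 1.48% of all genes in injured and 2.83% in non-injured fish). CDKN1B, the inhibitor of cyclin E kinase, ranged from 19.5 to 27.0 CPM in injured mutants, against 30.1 to 40.1 CPM in injured wild types (log2 fold change -0.57, SE 0.13, adjusted p = 0.0386). cdkn1a, an inhibitor of cyclin kinases known in mammals as a p53 target, ranged from 0.384 to 0.801 CPM in non-injured mutants, against 1.03 to 2.04 CPM in non-injured wild types (log2 fold change -1.21, SE 0.29, adjusted p = 0.0379). In neither gene did the groups overlap.

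Of 14 tested genes of the replication stress checkpoint, 4 were higher and 1 lower after injury in each genotype (35.7% called in each). Among all genes 27.2% were called in mutants and 23.8% in wild types. mdm2, the ligase that holds p53 down, averaged 42.7 ± 7.40 CPM in injured against 17.3 ± 1.48 CPM in non-injured mutants and 30.6 ± 4.05 CPM in injured against 19.0 ± 1.24 CPM in non-injured wild types (SD, n = 4; adjusted p = 1.05e-05 and 0.00201). RAD1, part of the checkpoint clamp, fell to 3.59 ± 1.1 CPM in injured against 8.81 ± 1.31 CPM in non-injured mutants and to 3.29 ± 0.442 CPM in injured against 5.08 ± 0.895 CPM in non-injured wild types (log2 fold change -1.29, SE 0.21, adjusted p = 0.000474 and -0.63, SE 0.21, adjusted p = 0.0407). brca2, which loads the recombinase onto single strands, was the 1 gene of this list called between genotypes, in both states. That is 7.14% of the list, beside 1.48% of all genes in injured and 2.83% in non-injured fish. brca2 averaged 5.21 ± 0.489 CPM in injured mutants, against 2.28 ± 0.339 CPM in injured wild types (log2 fold change 1.19, SE 0.27, adjusted p = 0.0424), and 3.65 ± 0.228 CPM in non-injured mutants, against 1.56 ± 0.868 CPM in non-injured wild types (log2 fold change 1.23, SE 0.29, adjusted p = 0.0331).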
